A study of Mus musculus with 22 samples.

Results

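The enzymes that make serine and pass its carbon to folate were followed with asparagine synthetase in mouse CD8+ T cells that lacked or kept VHL. The set holds 9 genes, chosen by name with earlier results of these data known: Phgdh, Psat1, Psph, Shmt1, Shmt2, Mthfd1, Mthfd2, Mthfd1l and Asns. They are 9 of the 46297 rows of the expression table, and all 9 passed the filter on low values, which left 14327 genes for testing. The cells were P14 cells, CD8+ T cells with a transgenic receptor for a peptide of a mouse virus, from C57BL/6 mice aged 6 to 12 weeks, and each replicate came from 5 mice. RNA sequencing gave 22 libraries in 10 groups. A Trm sort, for cells with a tissue-resident memory phenotype, and a nonTrm sort of day 7 tumors gave 2 VHL-deficient and 2 WT libraries each. Day 11 tumor cells gave 3 VHL-deficient and 3 WT libraries. Day 7 tumor cells that were not split into subsets gave 2 VHL-deficient and 2 WT libraries, and so did day 7 spleen cells. All groups were P14 cells, so the WT groups carry the receptor transgene too. The sources used here do not give the Vhl allele and its deletion, the tumor line, the markers of the Trm sort or the event that day 0 marks.

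Serine is made from the glycolytic intermediate 3-phosphoglycerate. PHGDH oxidises it, PSAT1 adds an amino group and PSPH removes the phosphate. The serine hydroxymethyltransferases SHMT2 in mitochondria and SHMT1 in the cytosol then move a carbon of serine onto tetrahydrofolate and release glycine. In mitochondria, MTHFD2 oxidises that carbon unit and MTHFD1L releases it as formate, which MTHFD1, a trifunctional enzyme of the cytosol, puts back onto folate for the synthesis of purines and thymidylate. Activated T cells are known to raise these enzymes when they divide. Asparagine synthetase, encoded by Asns, makes asparagine from aspartate and glutamine. Asns, Phgdh, Psat1 and Mthfd2 are known targets of the stress-responsive transcription factor ATF4. VHL marks the hypoxia-inducible factors (HIF) for degradation in the presence of oxygen.

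The libraries held 3375558 to 10211060 reads assigned to genes, of which a ribosomal RNA gene took 26.9% to 45.7% and the mitochondrial genome 2.89% to 12.1%. Levels are given as scaled counts, reads divided by a size factor of the library, and 1 read was worth 0.684 to 2.73 scaled counts. Vhl had 0 to 32 reads in the 11 VHL-deficient libraries, against 60 to 280 reads in the 11 WT libraries. The 12 T cell markers, Cd3e and Cd8a among them, summed to 35820 to 84170 scaled counts in VHL-deficient tumor libraries and to 31170 to 63050 in WT tumor libraries, with no marker at 0. The 7 melanoma markers summed to 25.2 to 68.5 in VHL-deficient and to 27.4 to 72.7 in WT tumor libraries, against 66.8 to 98.3 in spleen, and Sox10 was at 0 in most groups. In 3 libraries, WT Trm replicate 1, VHL-deficient nonTrm replicate 2 and WT unsplit day 7 tumor replicate 2, levels fell with transcript length more than in the other 19, with a slope of log2 level on log2 exon length of -0.378, -0.289 and -0.264, against -0.143 to 0.299. For a part of the genes and settings, fold changes that rest on them are given with and without them. Each of the 3 comes from a group of 2 libraries, so fits without them leave 1 library in that group, with no spread of its own. The same holds where any library of a 2-library group is left out. The limma p-values rest on how far replicate libraries lay apart, with the spread of a gene shared over all 10 groups. A group left with 1 library thus still gets a p-value. Those of the ratios come from permutation of genotype.

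VHL-deficient tumor cells held less mRNA of 8 of the 9 enzymes and more of Mthfd1l. The difference was averaged over the 4 tumor settings (Trm, nonTrm, day 11 and unsplit day 7), which share no library. Each setting compares VHL-deficient with WT libraries whose titles end in the same number. Whether the Trm and nonTrm sorts came from the same mice is not given in the sources used here. The average takes these sorts as separate, so its p-values may be too small if the mice were shared. By this average 8 enzymes fell and 1 rose, all 9 at an adjusted p under 0.05 in limma, where 31.0% of all tested genes were called, 14.1% as lower and 16.9% as higher. The members' median log2 fold change was -1.31, against 0.05 for all tested genes. As the set was chosen with earlier results of these data known, its counts beside these shares describe it and are no independent test. In bulk RNA, fewer cells of a type that express a gene and less of its RNA per cell cannot be told apart.

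The fall was steepest for Mthfd2, with a log2 fold change of -1.64 (SE 0.17, adjusted p = 7.01e-07). Asns followed at -1.60 (SE 0.23, adjusted p = 3.41e-05) and Shmt1 at -1.49 (SE 0.29, adjusted p = 6.83e-04). Psat1 and Phgdh lay at -1.36 and -1.31 (adjusted p = 1.26e-05 and 5.28e-06). The smallest falls were those of Mthfd1 at -1.02 (adjusted p = 0.0109), Psph at -0.72 (adjusted p = 0.00692) and Shmt2 at -0.72 (adjusted p = 0.00116). Mthfd1l rose by 1.84 log2 units (SE 0.27, adjusted p = 3.47e-05). The 95% intervals of neighbours among the 8 falling genes overlapped, while Mthfd1l stood apart in sign. All 9 calls held in each of the 28 alternatives tried, including those without any single tumor library and without the 3 libraries with steep length slopes.

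Proliferation genes moved the same way in these libraries: of 25, 23 fell and 0 rose, with a median log2 fold change of -1.54. Their summed level was 3214 to 23260 scaled counts in VHL-deficient tumor libraries and 6485 to 42810 in WT tumor libraries. Messages of the mitochondrial genome also fell, 6 of 6 tested, and the sums of the 9 listed did not overlap, at 24320 to 50100 in VHL-deficient and 64170 to 146800 in WT tumor libraries. B cell markers summed to 76.1 to 297 scaled counts in VHL-deficient and 311 to 1018 in WT tumor libraries, with Ighm the most abundant and Pax5 at 0 in several groups. Dendritic cell markers summed to 316.5 to 770.2 in VHL-deficient and 158 to 408.5 in WT tumor libraries, and 2 of 4 tested rose. Macrophage and monocyte markers summed to 24.4 to 100.9 in VHL-deficient and 51.3 to 142.7 in WT tumor libraries. Neutrophil markers summed to 1.05 to 152.2 in VHL-deficient and 4.70 to 739.6 in WT tumor libraries, with the 739.6 in a day 11 library. Of 3 tested nuclear long RNAs 2 rose, Neat1 by 1.12 and Kcnq1ot1 by 0.76 log2 units. The part of these lists in the enzyme differences was not tested.

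**Figure D1:**
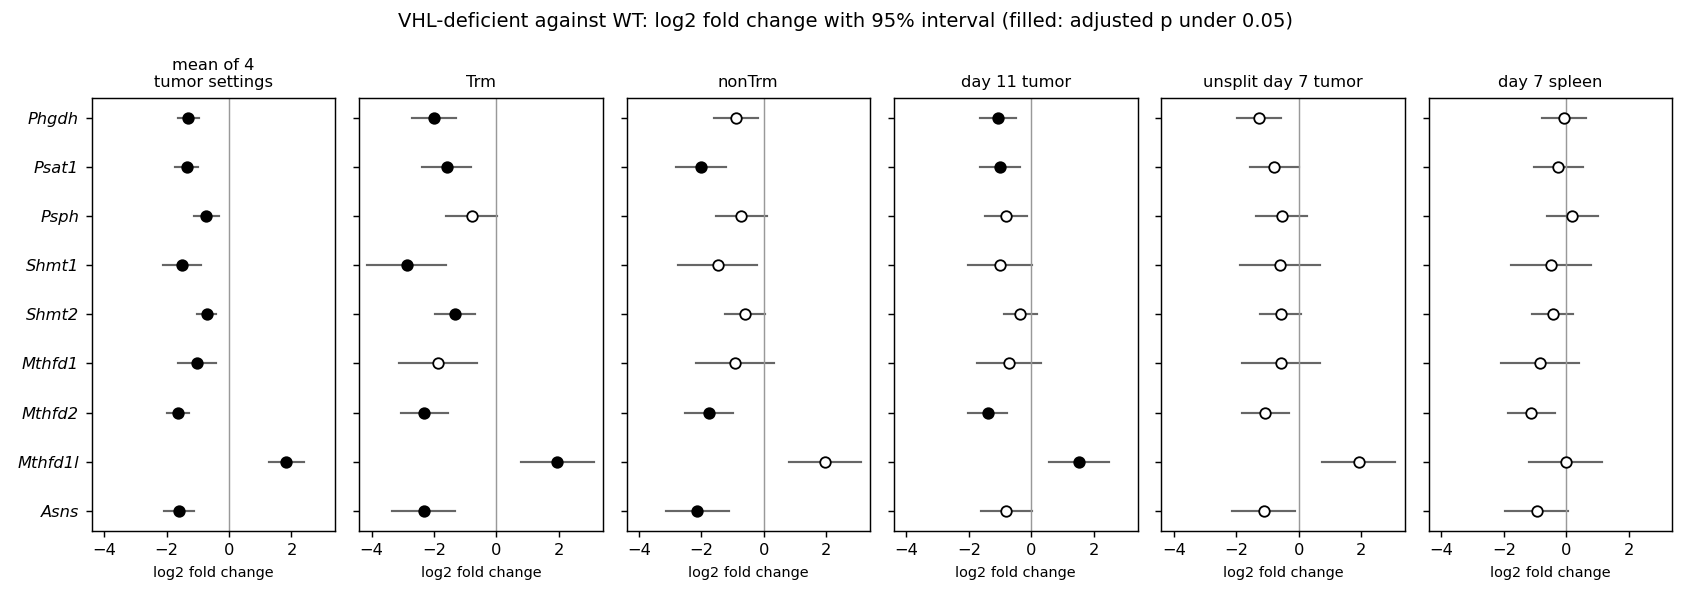
Log2 fold change of the 9 genes, VHL-deficient against WT, as the mean of 4 tumor settings and in each setting. Points are limma estimates, bars their 95% intervals, and filled points have an adjusted p under 0.05. In the mean of 4 settings 8 genes lie below 0 and Mthfd1l lies above it at 1.84, while in spleen Mthfd1l lies at -0.02.

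The enzymes of serine synthesis were examined in order of their steps. Phgdh (mm10 chromosome 3, 98313170 to 98339990, minus strand, 13 exon blocks in GENCODE M21) encodes the enzyme that commits 3-phosphoglycerate to serine. Phgdh had 329 and 205 scaled counts in VHL-deficient Trm cells, against 1208 and 910.3 in WT Trm cells. It had 249.6 and 224 in VHL-deficient nonTrm cells, against 579 and 339.8 in WT nonTrm cells. The genotypes did not overlap in either sort, an order with VHL-deficient cells lower that 25.0% of tested genes had in Trm and 14.4% in nonTrm cells. Day 11 tumor gave 301, 247.5 and 384 in VHL-deficient cells, against 523, 561 and 885.5 in WT cells. Unsplit day 7 tumor gave 468 and 433 in VHL-deficient cells, against 849.6 and 1383 in WT cells. The genotypes were again apart, and the 6 lowest of the 9 VHL-deficient tumor libraries lay below every WT tumor library. Spleen gave 304 and 208 in VHL-deficient cells, against 263 and 262 in WT cells, and there the VHL-deficient pair spanned the WT pair.

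Phgdh was called lower in Trm cells (log2 fold change -2.01, SE 0.34, adjusted p = 8.53e-04) and in day 11 tumor (-1.06, SE 0.28, adjusted p = 0.0238). Its differences in nonTrm cells (-0.91, adjusted p = 0.180), unsplit day 7 tumor (-1.27, adjusted p = 0.0608) and spleen (-0.06, 95% interval -0.77 to 0.64) were not called. The day 11 call was lost without VHL-deficient replicate 1 (adjusted p = 0.0825), without VHL-deficient replicate 2 (adjusted p = 0.130) or without WT replicate 3 (adjusted p = 0.158). In unsplit day 7 tumor Phgdh was called without WT replicate 1 (-1.62, adjusted p = 0.0381) or without VHL-deficient nonTrm replicate 2, which enters only the shared spread (adjusted p = 0.0371).

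Psat1 (chromosome 19, 15904678 to 15947337, minus strand, 12 exon blocks) encodes the aminotransferase of the second step. It had 459.5 and 229 scaled counts in VHL-deficient Trm cells, against 919 and 1045 in WT Trm cells. In nonTrm cells the values were 204 and 79.1 in VHL-deficient libraries, against 625 and 429 in WT libraries. VHL-deficient libraries were the lower ones in both sorts. At day 11 it had 392.5, 343 and 564 in VHL-deficient cells, against 828, 741 and 1035 in WT cells. Unsplit day 7 tumor gave 660.1 and 653 in VHL-deficient cells, against 1023 and 1265 in WT cells. In spleen the genotypes overlapped, with 212 and 165 in VHL-deficient cells and 206 and 245 in WT cells. Psat1 was called lower in Trm cells (-1.59, SE 0.38, adjusted p = 0.0106) and nonTrm cells (-2.02, SE 0.38, adjusted p = 0.00412), and at the threshold in day 11 tumor (-1.02, SE 0.31, adjusted p = 0.0499). That day 11 call was lost without VHL-deficient replicate 1 or 2 or any 1 of the WT replicates (adjusted p = 0.0724 to 0.211). The Trm call was lost without VHL-deficient replicate 2 (-1.09, adjusted p = 0.247), WT replicate 1 (adjusted p = 0.0585) or WT replicate 2 (adjusted p = 0.0509), and the nonTrm call without VHL-deficient replicate 2 (-1.34, adjusted p = 0.0755) or WT replicate 1 (adjusted p = 0.0719).

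Psph (chromosome 5, 129765558 to 129787449, minus strand, 9 exon blocks) encodes the phosphatase of the last step, and it had the narrowest range of levels over the 22 libraries. It had 131 to 352 scaled counts in the 9 VHL-deficient tumor libraries, with a median of 219, against 290.1 to 519 in the 9 WT tumor libraries, with a median of 341. The 8 lowest VHL-deficient libraries lay below all WT tumor libraries, and nonTrm replicate 2, at 352, lay among them. Psph shares 452 exonic bases with Cct6a on the opposite strand, a chaperonin gene with up to 3821 reads in a library. Whether reads were counted by strand is not given in the sources used here, so reads of the 2 genes in the shared stretch cannot be told apart. Psph was called in no single setting, with log2 fold changes of -0.79 in Trm, -0.72 in nonTrm, -0.82 in day 11 and -0.55 in unsplit day 7 tumor. At day 11 it was called without VHL-deficient nonTrm replicate 2, which enters only the shared spread (adjusted p = 0.0464).

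**Figure D2:**
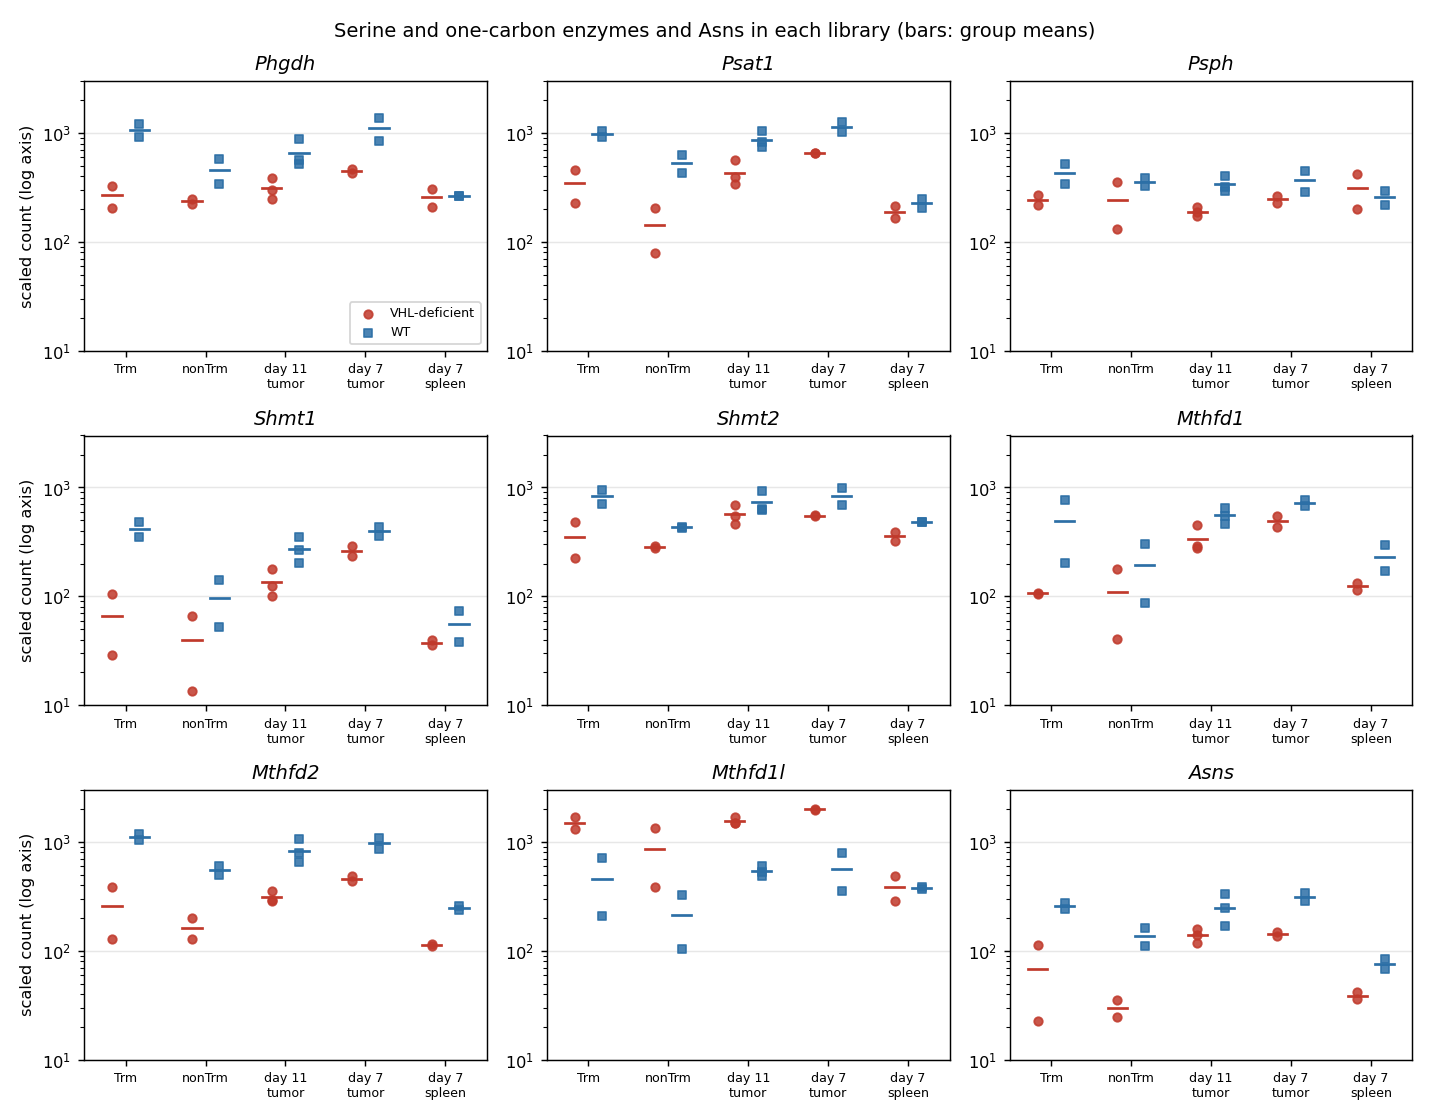
Scaled count of each gene in every library on a log axis, VHL-deficient libraries in red to the left of WT libraries in blue, with bars at group means; Trm and nonTrm are day 7 tumor sorts. VHL-deficient tumor libraries lie below WT libraries for Mthfd2 in every setting and above them for Mthfd1l.

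The serine hydroxymethyltransferases follow. Shmt1 (chromosome 11, 60788104 to 60811718, minus strand, 15 exon blocks) encodes the cytosolic enzyme. It had 105 and 28.7 scaled counts in VHL-deficient Trm cells, against 347 and 487 in WT Trm cells, where the difference was called (log2 fold change -2.88, SE 0.61, adjusted p = 0.00521). The call was lost without VHL-deficient Trm replicate 2 (-1.96, adjusted p = 0.171). Across the 9 tumor libraries of each genotype, Shmt1 had 13.6 to 288 scaled counts in VHL-deficient cells and 52.5 to 487 in WT cells, and these ranges overlap widely. Its lowest count was 5 reads, in VHL-deficient nonTrm replicate 2.

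Shmt2 (chromosome 10, 127517123 to 127522444, minus strand, 10 exon blocks) encodes the mitochondrial enzyme. It had 478 and 224 scaled counts in VHL-deficient Trm cells, against 712 and 957 in WT Trm cells, where it was called lower (-1.33, SE 0.31, adjusted p = 0.00967). The call was lost without VHL-deficient Trm replicate 2 (-0.79, adjusted p = 0.276) or WT Trm replicate 2 (-1.12, adjusted p = 0.0691). In day 11 tumor the genotypes overlapped, with 553, 458 and 686 in VHL-deficient cells and 618, 638 and 929 in WT cells (-0.36, 95% interval -0.89 to 0.17).

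Mthfd2 (chromosome 6, 83305691 to 83325908, minus strand, 10 exon blocks) encodes the mitochondrial dehydrogenase and cyclohydrolase of the folate pathway, an enzyme low in most adult tissues and raised in dividing cells. Among the 9 members, it was the one whose tumor libraries were parted by genotype without exception. It had 127 to 484.5 scaled counts in the 9 VHL-deficient libraries, against 495 to 1173 in the 9 WT libraries. The gap was narrow, and the share of all tested genes parted in this way was not counted. In Trm cells Mthfd2 had 385 and 127 in VHL-deficient libraries, against 1173 and 1037 in WT libraries. In nonTrm cells it had 199 and 128 in VHL-deficient libraries, against 599 and 495 in WT libraries. Thus the highest VHL-deficient value was still below the lowest WT value of its setting. Day 11 gave 290.3, 287.5 and 353 in VHL-deficient cells, against 655, 785 and 1059 in WT cells, and unsplit day 7 tumor gave 438 and 484.5 in VHL-deficient cells, against 856 and 1098 in WT cells. Spleen showed a gap too, with 112 and 115 in VHL-deficient cells, against 259 and 236 in WT cells. Of tested genes, 19.8% had this order in spleen, and 14.4% (nonTrm) to 25.0% (Trm) had it in a single tumor setting.

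Mthfd2 was called lower in Trm cells (log2 fold change -2.31, SE 0.36, adjusted p = 4.12e-04), in nonTrm cells (-1.76, SE 0.36, adjusted p = 0.00909) and in day 11 tumor (-1.40, SE 0.30, adjusted p = 0.00587). It was not called in unsplit day 7 tumor (-1.07, adjusted p = 0.165) or in spleen (-1.12, 95% interval -1.87 to -0.36, adjusted p = 0.118). The nonTrm call was lost without VHL-deficient replicate 2 (adjusted p = 0.0921), WT replicate 1 (adjusted p = 0.0956) or WT replicate 2 (adjusted p = 0.0507).

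Mthfd1l (chromosome 10, 3973118 to 4167081, plus strand, 30 exon blocks) encodes the mitochondrial ligase that releases formate, the step after MTHFD2. It ran the other way. In Trm cells it had 1317 and 1687 scaled counts in VHL-deficient libraries, against 209.5 and 707 in WT libraries. In nonTrm cells it had 1346 and 382 in VHL-deficient libraries, against 327 and 104 in WT libraries. VHL-deficient libraries were the higher ones in both sorts, narrowly so for nonTrm replicate 2. Of tested genes, 28.5% had this order in Trm and 19.6% in nonTrm cells. Day 11 gave 1503, 1480 and 1682 in VHL-deficient cells, against 487, 604 and 524 in WT cells. Unsplit day 7 tumor gave 2026 and 1968 in VHL-deficient cells, against 783 and 353 in WT cells. Of the 9 VHL-deficient tumor libraries, 8 lay above all 9 WT tumor libraries, and the exception was nonTrm replicate 2. In spleen the genotypes overlapped, with 284 and 486 in VHL-deficient cells and 369 and 383.5 in WT cells.

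The rise of Mthfd1l was called in Trm cells (log2 fold change 1.95, SE 0.56, adjusted p = 0.0312) and in day 11 tumor (1.53, SE 0.46, adjusted p = 0.0471). In nonTrm cells (1.95, adjusted p = 0.0715) and unsplit day 7 tumor (1.92, adjusted p = 0.0919) the difference was not called, and in spleen it was -0.02 (95% interval -1.18 to 1.15). The day 11 call was lost without any 1 of the 6 day 11 libraries (adjusted p = 0.0839 to 0.140), although the fold change stayed between 1.46 and 1.62. In Trm cells the call was lost without VHL-deficient replicate 1 (2.13, adjusted p = 0.0587), VHL-deficient replicate 2 (1.77, adjusted p = 0.251) or WT replicate 1 (1.07, adjusted p = 0.408), which is 1 of the 3 libraries with a steep length slope. The nonTrm difference was called without VHL-deficient nonTrm replicate 2 (2.86, adjusted p = 0.0109) or WT nonTrm replicate 1 (2.78, adjusted p = 0.0250). That of unsplit day 7 tumor was called without VHL-deficient nonTrm replicate 2 (adjusted p = 0.0276). Each of the 3 libraries held the lower Mthfd1l value of its pair, and the part of the length slope in this was not tested. Without those 3 libraries, the Trm, nonTrm and unsplit day 7 comparisons had 1 library on 1 side. The log2 fold change was then 1.07 in Trm cells, 2.86 in nonTrm cells and 1.35 in unsplit day 7 tumor. It was 1.53 in day 11 tumor and 1.70 as the mean of the 4 settings.

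Mthfd1 (chromosome 12, 76255298 to 76319803, plus strand, 29 exon blocks) encodes the cytosolic enzyme that takes up formate. In Trm cells it had 108 and 106 scaled counts in VHL-deficient libraries, against 203 and 775 in the WT pair. With a spread shared over all groups, it was just uncalled (-1.88, SE 0.60, adjusted p = 0.0504). Without WT Trm replicate 1, the lower of that pair, it was called (-2.85, adjusted p = 0.0195), as it was without VHL-deficient nonTrm replicate 2 (adjusted p = 0.0133). Over all tumor libraries its level ran from 40.9 to 546.5 in VHL-deficient cells and from 87.0 to 775 in WT cells.

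Asns (chromosome 6, 7675169 to 7693254, minus strand, 13 exon blocks) had low counts throughout, with 9 to 384 reads in a library. It had 113 and 22.5 scaled counts in VHL-deficient Trm cells, against 245 and 275 in WT Trm cells. In nonTrm cells it had 35.6 and 24.6 in VHL-deficient libraries, against 162 and 109.7 in WT libraries. The genotypes were apart in both sorts. Day 11 gave 117, 141 and 157 in VHL-deficient cells, against 169.6, 245 and 332 in WT cells. Unsplit day 7 tumor gave 150.1 and 136 in VHL-deficient cells, against 337 and 289 in WT cells. Spleen gave 35.8 and 41.8 in VHL-deficient cells, against 83.5 and 68.1 in WT cells. VHL-deficient libraries were thus below their WT counterparts in all 5 settings. In a single setting, 14.4% (nonTrm) to 25.0% (Trm) of tested genes had this order, and the share with it in all 5 was not counted. The differences in Trm cells (log2 fold change -2.33, SE 0.48, adjusted p = 0.00451) and nonTrm cells (-2.13, SE 0.48, adjusted p = 0.0198) were called. Those in day 11 tumor (-0.80, adjusted p = 0.242), unsplit day 7 tumor (-1.12, adjusted p = 0.314) and spleen (-0.95, adjusted p = 0.424) were not. The Trm call was lost without VHL-deficient Trm replicate 2 (-1.19, adjusted p = 0.162). In nonTrm cells it was lost without VHL-deficient replicate 2 (adjusted p = 0.118), WT replicate 1 (adjusted p = 0.179) or WT replicate 2 (adjusted p = 0.0631).

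Without the 3 libraries with steep length slopes, the values of the other members moved as follows. In Trm cells, with 1 WT library left, Phgdh stood at -1.81, Psat1 at -1.68, Shmt1 at -3.12, Shmt2 at -1.54 and Mthfd2 at -2.22. Asns stood there at -2.41, Mthfd1 at -2.85 and Psph at -0.49. In nonTrm cells, with 1 VHL-deficient library left, Psat1 stood at -1.34, Mthfd2 at -1.45, Asns at -1.88 and Phgdh at -0.83. Shmt1 stood there at -0.39, Shmt2 at -0.57 and Mthfd1 at 0.13. In unsplit day 7 tumor, with 1 WT library left, Phgdh stood at -0.91, Psat1 at -0.64, Mthfd2 at -0.89, Asns at -1.23 and Psph at -0.25. The mean over the 4 settings was then -1.15 for Phgdh, -1.17 for Psat1, -1.24 for Shmt1, -1.49 for Mthfd2 and -1.58 for Asns, all called.

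The promoters of Mthfd1l, Mthfd2 and Asns are shown because these genes moved furthest, Mthfd1l alone in the upward direction. Each runs from 250 bases before to 50 after the RefSeq start site of GRCm38.p6. The sequences were searched on both strands for the core of the hypoxia response element, ACGTG (read CACGT on the other strand), for the C/EBP-ATF response element through which ATF4 acts, TGATGNAA, and for the E-box CACGTG, which holds the hypoxia core within it. Capitals mark matches.
Mthfd1l (chr10:3972825-3973124, plus strand): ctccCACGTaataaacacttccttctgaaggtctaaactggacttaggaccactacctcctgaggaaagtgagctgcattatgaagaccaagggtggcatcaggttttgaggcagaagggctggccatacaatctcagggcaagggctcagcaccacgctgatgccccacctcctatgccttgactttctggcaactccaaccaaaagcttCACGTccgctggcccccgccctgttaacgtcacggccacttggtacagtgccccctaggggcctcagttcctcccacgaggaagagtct
Asns (chr6:7693160-7693459, minus strand): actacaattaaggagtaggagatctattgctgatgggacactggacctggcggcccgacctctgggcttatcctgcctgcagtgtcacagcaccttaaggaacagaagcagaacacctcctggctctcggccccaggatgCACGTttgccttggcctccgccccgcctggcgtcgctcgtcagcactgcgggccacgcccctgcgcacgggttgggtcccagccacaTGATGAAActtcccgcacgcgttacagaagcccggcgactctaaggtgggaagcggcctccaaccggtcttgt
Mthfd2 (chr6:83317555-83317854, minus strand): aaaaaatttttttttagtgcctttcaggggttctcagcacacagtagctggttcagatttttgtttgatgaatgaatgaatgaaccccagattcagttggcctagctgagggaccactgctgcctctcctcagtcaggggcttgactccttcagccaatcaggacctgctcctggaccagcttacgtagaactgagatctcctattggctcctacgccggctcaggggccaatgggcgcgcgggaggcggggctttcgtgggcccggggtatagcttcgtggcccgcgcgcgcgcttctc

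The Mthfd1l window holds 2 hypoxia cores, at -246 to -242 and at -39 to -35 from the start site. The Asns window holds the ATF4 element TGATGAAA at -23 to -16, which in the human gene is known as a nutrient-sensing element, and a hypoxia core at -110 to -106. The Mthfd2 window has no match to any of the 3 motifs. Among the other members, Psph has a hypoxia core at -153 to -149 and Psat1 at 5 to 9 in 1 of its 2 windows, and the windows of Phgdh, Shmt1, Shmt2 and Mthfd1 have no match. A hypoxia core is found in 19.6% of the 32851 mouse promoters of the same length, the ATF4 element in 3.97% and the E-box in 7.15%. These matches describe the letters and say nothing of binding.

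The calls were then counted by setting. In Trm cells 6 members fell and Mthfd1l rose, 7 of 9 called, where 10.1% of all tested genes were called, 5.03% as lower and 5.07% as higher. Only Mthfd1 (adjusted p = 0.0504) and Psph (adjusted p = 0.211) missed the threshold there. The count was 2 without VHL-deficient Trm replicate 2. In nonTrm cells Mthfd2, Psat1 and Asns fell and 0 rose, 3 of 9 against 2.32% of all genes, 0.670% lower and 1.65% higher. That count was 1 without VHL-deficient replicate 2 or without either WT nonTrm replicate. Without VHL-deficient replicate 1, Shmt1 stood at -2.58 and Mthfd1 at -1.96. That fit rests on VHL-deficient nonTrm replicate 2 alone for its group, with 5 Shmt1 reads and 15 Mthfd1 reads. Ribosomal RNA took 45.7% of the reads of that library, the highest share of all libraries. Without the 3 libraries with steep length slopes, which left 1 VHL-deficient nonTrm library, Mthfd1l stood at 2.86 and Psph at -1.43. The difference between these 2 genotype effects was tested itself and called for 0 members, and for 0 genes in all, with 1 member, Phgdh (-1.10, unadjusted p = 0.0320, adjusted p = 0.593), at an unadjusted p under 0.05, and 0 members by voom on the recovered reads. The count of genes was 1494, 10.4%, without VHL-deficient nonTrm replicate 1, again with 0 members.

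In day 11 tumor Mthfd2, Phgdh and Psat1 fell and Mthfd1l rose, 4 of 9 against 6.87% of all genes, 2.39% lower and 4.47% higher. The count was 1 without VHL-deficient replicate 1 or 2 or without WT replicate 3, where 2.92% to 3.5% of all genes were called. It was 2 without WT replicate 1 or 2, where 4.03% and 4.77% of all genes were called. For 7 members, all but Shmt2 and Mthfd1l, every VHL-deficient day 11 library lay below every WT one, an order seen in 17.9% of tested genes. In unsplit day 7 tumor 0 members were called, against 1.91% of all genes (0.223% lower, 1.68% higher), with 5 at an unadjusted p under 0.05 and 0 called by voom. The count was 2 without VHL-deficient nonTrm replicate 2 and 1 without WT unsplit replicate 1. There, too, 8 members lay lower in both VHL-deficient libraries than in both WT libraries, an order found in 23.6% of tested genes, and Mthfd1l lay higher. In spleen 0 members were called, against 3.18% of all genes (0.733% lower, 2.44% higher), with 1, Mthfd2, at an unadjusted p under 0.05 and 0 called by voom.

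Genotype and tissue were then set side by side, as day 7 tumor cells not split into subsets against day 7 spleen cells of the same genotype. Tumor cells held more mRNA of most of the enzymes in both genotypes. In VHL-deficient cells 6 of 9 members were called higher in tumor and 0 lower, where 15.4% of genes were called, 9.98% higher and 5.47% lower. In WT cells 6 of 9 were called higher and 0 lower, where 21.5% of genes were called, 13.2% higher and 8.31% lower. Asns, Mthfd1, Mthfd2, Psat1 and Shmt1 were called in both genotypes, Mthfd1l in VHL-deficient cells and Phgdh in WT cells, and Psph and Shmt2 in neither. Shmt1 had the largest difference, with a log2 fold change of 2.76 in VHL-deficient cells (adjusted p = 0.00372) and 2.88 in WT cells (adjusted p = 0.00212). Mthfd2 came to 2.01 in VHL-deficient cells (adjusted p = 6.50e-04) and 1.97 in WT cells (adjusted p = 6.15e-04), and Asns to 1.86 in VHL-deficient (adjusted p = 0.0120) and 2.04 in WT cells (adjusted p = 0.00512). The count in VHL-deficient cells was 3 without spleen replicate 1, when Asns (adjusted p = 0.0929), Mthfd1 (adjusted p = 0.158) and Mthfd1l (2.04, adjusted p = 0.0843) were lost. There Mthfd1 was also lost without spleen replicate 2 or either tumor replicate (adjusted p = 0.0834 to 0.181), and Asns without tumor replicate 1 (adjusted p = 0.0935) or 2 (adjusted p = 0.0558). Without the 3 libraries with steep length slopes, 1 WT tumor library was left. The 6 genes called in WT cells then ran from 1.69 for Phgdh to 2.73 for Shmt1. In WT cells the call of Mthfd1 (1.69, adjusted p = 0.0498) was lost without any 1 of the 4 libraries (adjusted p = 0.0761 to 0.263). Of the 25 proliferation genes, 24 were higher in tumor in either genotype, and their part in these differences was not tested.

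Mthfd1l and Phgdh had tumor-to-spleen differences that were unlike in the genotypes, though the test of that difference did not pass. Mthfd1l was higher in tumor by 2.42 log2 units in VHL-deficient cells (SE 0.56, adjusted p = 0.00516), and its difference in WT cells was 0.48 (95% interval -0.68 to 1.65, adjusted p = 0.577). That WT difference was 1.06 without the 3 libraries with steep length slopes, which left 1 WT tumor library. Phgdh differed by 0.84 in VHL-deficient cells (SE 0.34, adjusted p = 0.102) and was higher in tumor by 2.04 in WT cells (SE 0.34, adjusted p = 2.22e-04), or by 1.69 without those libraries. The interaction of genotype and tissue was 1.94 for Mthfd1l (SE 0.79, unadjusted p = 0.0233, adjusted p = 0.447) and -1.20 for Phgdh (SE 0.48, unadjusted p = 0.0207, adjusted p = 0.437). Without the 3 libraries it was 1.37 for Mthfd1l and -0.85 for Phgdh. Of all tested genes, 0.0698% passed it (0.0209% upward, 0.0489% downward), and 0 of 9 members did, by limma and by voom.

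**Figure D3:**
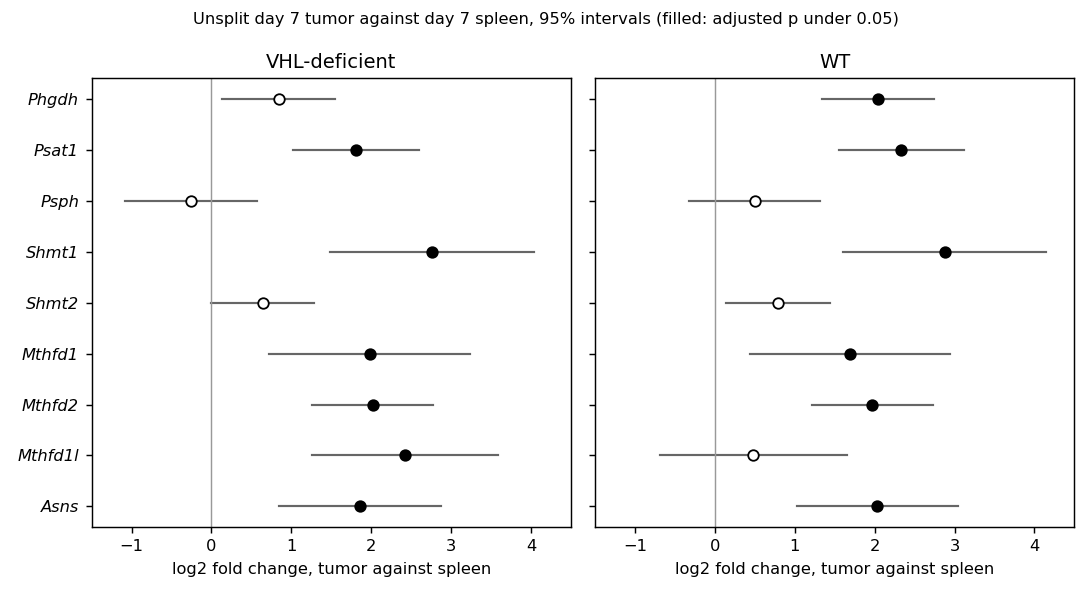
Log2 fold change of the 9 genes in unsplit day 7 tumor against day 7 spleen, VHL-deficient cells in the left panel and WT cells in the right one, with 95% intervals and filled points at an adjusted p under 0.05. Mthfd1l stands at 2.42 in VHL-deficient and 0.48 in WT cells, and Phgdh at 0.84 and 2.04 in the same order.

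Within the tumor, Trm cells were set against nonTrm cells of the same genotype, and no member was called. In VHL-deficient cells log2 fold changes of Trm against nonTrm ran from 0.14 for Phgdh to 1.34 for Psat1, and 0 of 9 were called, against 0.00698% of all genes, with 1, Psat1, at an unadjusted p under 0.05 and 0 by voom. In WT cells they ran from 0.25 for Psph to 2.24 for Shmt1, and 0 of 9 were called, against 0.300% of all genes (0.202% higher, 0.0977% lower), with 6 at an unadjusted p under 0.05 and 1, Shmt1 (adjusted p = 0.0312), by voom. Shmt1 was also called there without VHL-deficient nonTrm replicate 2 (adjusted p = 0.0302). All 18 values were positive, and the values of a genotype share its 4 libraries. Without the 3 libraries with steep length slopes, which left 1 WT Trm library, Shmt1 stood at 2.48, Mthfd1 at 2.25 and Mthfd1l at 1.93 in WT cells. Without VHL-deficient nonTrm replicate 1, calls appeared in VHL-deficient cells, among members and among all genes. That fit rests on nonTrm replicate 2 alone for its group, a library where ribosomal RNA took 45.7% of reads. Of Trm against nonTrm, 3 of the 25 proliferation genes were called higher in WT and 0 in VHL-deficient cells, and their part was not tested. Day 11 and unsplit day 7 tumor cells differed in 0 members of either genotype (0% of genes called, 633 and 484 genes at an unadjusted p under 0.05 in VHL-deficient and WT cells, of them 0 and 1 members), and by voom in 0 members of either. Day cannot be told apart from the last number of the library title, which was 3 at day 11 and 2 for unsplit day 7 tumor and whose meaning the sources used here do not give.

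The balance within the folate pathway was read as the ratio of a mitochondrial to a cytosolic enzyme in the same library, with levels per kilobase of exon, so that library scaling cancels. The ratio of Mthfd1l to Mthfd1 was 3.71 to 15.9 in the 9 VHL-deficient tumor libraries, against 0.521 to 1.19 in the 9 WT tumor libraries. The ranges are far apart. In spleen it was 2.48 and 3.62 in VHL-deficient cells, against 2.17 and 1.30 in WT cells. The log2 difference over the 4 tumor settings was 2.86. An exact two-sided permutation of genotype within settings over 4320 regroupings gave p = 4.63e-04, the smallest it can give. After adjustment over 3 ratios it was 0.00139. The permutation takes the Trm and nonTrm sorts as separate, so its p may be too small if they came from the same mice. This ratio joins the rise of Mthfd1l and the fall of Mthfd1 in the same libraries, so its test adds no separate support.

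The ratio of Shmt2 to Shmt1 was 2.38 to 23.8 in VHL-deficient and 2.45 to 9.97 in WT tumor libraries, and these overlap. The value of 23.8 is that of VHL-deficient nonTrm replicate 2, with 5 Shmt1 reads and a steep length slope. The log2 difference of this ratio was 0.77 (exact permutation p = 0.0412, adjusted 0.0618). It was made up of 1.55 in Trm, 0.89 in nonTrm, 0.65 in day 11 and 0.02 in unsplit day 7 tumor. It was 1.04 without VHL-deficient nonTrm replicate 1, where nonTrm replicate 2 was the 1 library left of its group. It was 0.81 without VHL-deficient unsplit day 7 tumor replicate 2, and it ran from 0.51 to 1.04 over all left-out libraries. Mthfd2 to Mthfd1 differed by -0.61 (exact permutation p = 0.121, adjusted 0.121).

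**Figure D4:**
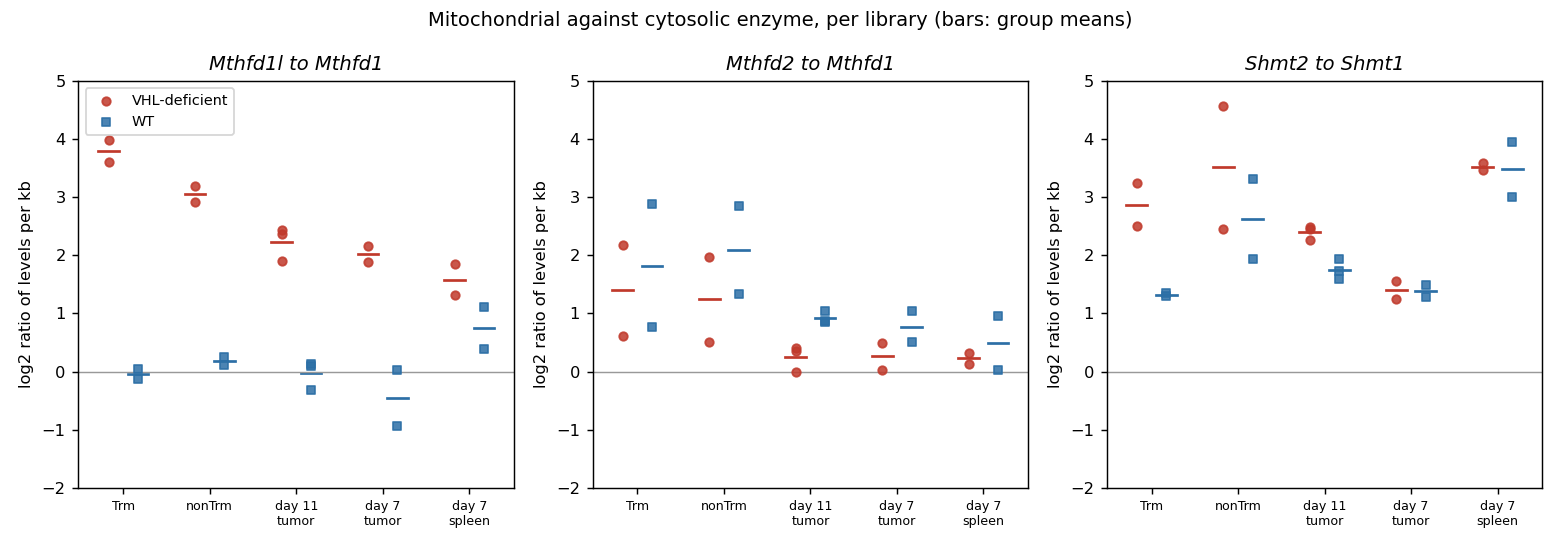
Log2 ratio of a mitochondrial to a cytosolic enzyme per library, levels per kilobase of exon, VHL-deficient in red to the left of WT in blue, with bars at group means. For Mthfd1l to Mthfd1 all VHL-deficient tumor libraries lie above all WT tumor libraries; the other ratios overlap.

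Mthfd1l and Mthfd2 act in successive steps of the same mitochondrial branch, and their ratio was chosen after the values were seen, so it is described without a test. Per kilobase, Mthfd1l over Mthfd2 was 2.33 to 10.3 in VHL-deficient tumor libraries, with a median of 3.74, against 0.141 to 0.719 in WT tumor libraries, with a median of 0.430. In spleen it was 1.99 and 3.30 in VHL-deficient cells, against 1.12 and 1.28 in WT cells. The order of the 2 genes was thus turned round between the genotypes in tumor, and Mthfd1l was the higher of them in every spleen library.

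**Figure D5:**
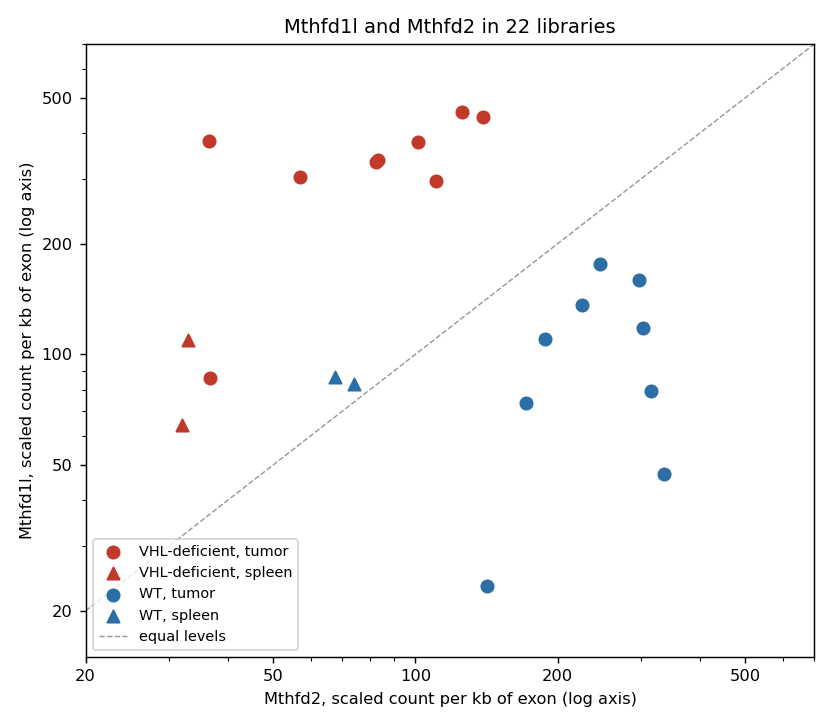
Level of Mthfd1l against that of Mthfd2 in each of the 22 libraries, in scaled counts per kilobase of exon on log axes, with tumor libraries as circles and spleen libraries as triangles. All 9 VHL-deficient tumor libraries lie above the line of equal levels and all 9 WT tumor libraries below it.

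Per kilobase of exon, the 9 genes also had a different order of level. In VHL-deficient tumor libraries Mthfd1l ranked first in 8 of 9, at a median of 339 scaled counts per kilobase, followed by Shmt2 at 154 and Phgdh at 121. In WT tumor libraries Phgdh ranked first in 8 of 9, at a median of 342, followed by Mthfd2 at 245.5 and Shmt2 at 224, and Mthfd1l ranked 5th to 9th at a median of 109.8. Psat1 stood at 92.3 in VHL-deficient and 216 in WT tumor libraries, and Mthfd2 at 83.3 in VHL-deficient ones. The lowest medians in VHL-deficient tumor were those of Shmt1 at 27.0, Asns at 42.9, Psph at 50.6 and Mthfd1 at 62.7, against 89.4, 89.6, 78.8 and 124 in WT tumor. Those 4 genes overlapped with each other in either genotype. In spleen Shmt2 ranked first in both WT libraries and in 1 of 2 VHL-deficient ones, and Shmt1 ranked last in all 4.

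Across the 22 libraries, levels of most of the 8 genes other than Mthfd1l went up and down together. Their 28 pairs had Pearson r from 0.04 to 0.95 with a median of 0.85 on the log2 scale, and Psph had the weakest ties, at 0.04 with Mthfd1 and 0.28 with Shmt1. The 8 pairs with Mthfd1l had r from -0.70 to 0.27 with a median of -0.05. These values describe libraries that share group, depth and scaling. By the same measure, the genes outside the set most like Mthfd2 were Cct7, a chaperonin subunit (r = 0.97), the chaperone Hspa8 (0.96), the mitotic kinase Plk1 (0.96), and the translation factors Etf1 (0.96) and Eif2s1 (0.95). Those most like Phgdh were Hnrnpa2b1 (0.97), the ATP synthase subunit Atp5b (0.97), Gtf2f2 (0.97), the replication factor Rfc5 (0.96) and Cct7 (0.95). Asns was most like Pno1 (0.94), Rsl1d1 (0.93), Eif2s1 (0.93), Tfdp1 (0.93) and Cct3 (0.92). For Mthfd1l, added after its values were seen, they were the hexokinase Hk1 (0.97), Spidr (0.95), the glucose transporter Slc2a3 (0.92), Nrp1 (0.92) and Plekha2 (0.92).

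Genes around the pathway were counted in the same average of 4 tumor settings, VHL-deficient against WT, beside a median log2 fold change of 0.05 and calls in 31.0% of all tested genes, 16.9% higher and 14.1% lower. Shares near these are no result about a list. Upstream, among 8 tested genes of the glycolytic steps around 3-phosphoglycerate, 5 rose and 2 fell, with a median of 1.14. Pgk1, which makes 3-phosphoglycerate, rose by 1.67 log2 units (adjusted p = 2.67e-09), Gapdh by 1.44 (adjusted p = 1.43e-06) and Pkm by 1.34 (adjusted p = 3.93e-07), and the muscle enolase Eno3 fell by 2.76 (adjusted p = 2.79e-10).

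Among 6 tested carriers of serine and glycine, 2 rose and 2 fell, with a median of -0.12. The mitochondrial serine carrier Sfxn1 fell by 0.75 (adjusted p = 0.00171) and its relative Sfxn3 rose by 0.62 (adjusted p = 0.00138). The amino acid transporter Slc38a1 fell by 0.73 (adjusted p = 4.08e-04), and Slc38a2 rose by 0.63 (adjusted p = 0.0463). Of 9 genes that cleave glycine or use serine, 0 rose and 5 fell, among them Gcat (-1.63), the glycine decarboxylase Gldc (-1.18), Gcsh (-0.85) and the phosphatidylserine synthase Ptdss2 (-0.83).

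In the rest of the folate cycle 2 of 13 genes rose and 4 fell, with a median of 0.08. Tyms, the thymidylate synthase that consumes a folate carbon, fell by 1.51 (adjusted p = 1.52e-06). Fpgs, which traps folate in cells, fell by 0.90 (adjusted p = 0.00267), and Aldh1l1, which burns a folate carbon to carbon dioxide in the cytosol, rose by 2.08 (adjusted p = 0.00643). Purine synthesis, which takes up carbon from folate, had 0 of 11 genes higher and 6 lower, with a median of -0.74. Prps1 (-1.26), Impdh2 (-1.16), Adsl (-0.83) and Ppat (-0.76), the first committed enzyme, were among them. In the methionine cycle 0 of 6 rose and 2 fell, Ahcy (-0.95) and Mtap (-0.55).

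Among 12 genes of asparagine, aspartate and glutamine metabolism, 1 rose and 2 fell, with a median of 0.07. The aspartate aminotransferases Got1 and Got2, which supply the substrate of asparagine synthetase, fell by 1.01 (adjusted p = 1.30e-04) and 0.71 (adjusted p = 2.41e-04), and the glutamine synthetase Glul rose by 0.49 (adjusted p = 0.0257).

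Regulators known for this pathway were mixed in direction. Of 15 tested genes of the ATF4 pathway, 4 rose and 2 fell, with a median of 0.02. Atf4 itself differed by -0.13 (95% interval -0.42 to 0.16, adjusted p = 0.519). Of its known targets, Eif4ebp1, Trib3 and Ddit4 in this list rose by 1.61, 1.23 and 1.01 (adjusted p = 3.63e-06, 3.89e-04 and 0.00182), while Asns, Phgdh, Psat1 and Mthfd2 among the members fell. Eif2s1, a translation initiation subunit, fell by 0.78. Of 8 regulators of the MYC, mTORC1 and NRF2 pathways, 2 rose and 1 fell: Mycn rose by 4.14, Rptor by 0.94, and Nfe2l2 fell by 0.77. Myc differed by -0.35 (95% interval -0.70 to 0.00, adjusted p = 0.121), and in Trm cells alone it was called lower (-1.33, adjusted p = 0.0199). The proliferation marker Mki67 fell by 1.48 (adjusted p = 7.71e-08), and it had 175 to 1013 scaled counts in VHL-deficient and 371 to 1893 in WT tumor libraries.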

How the data were processed

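The deposited table holds 1 signal per gene and library, which per its values is a read count divided by a size factor of the library plus 1. The authors used STAR, featureCounts and DESeq and the build mm10, per the submitters' processing notes, which give no version. The offset of 1 was removed. Values were whole multiples of 1 read in 100% of cases (tolerance 0.01 reads, largest deviation 0.00106), and reads were recovered from that step. The table's header states 55 samples, and 22 are analysed here. Labels with the letter V were read as VHL-deficient, which the Vhl reads matched in all libraries.

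A gene entered the tests if 2 or more libraries reached a scaled count of 10. The log2(scaled count + 1) values were fitted with limma 3.58.1 (R 4.3.3) as 10 group means with 12 residual degrees of freedom and a mean-variance trend. The 15 comparisons were two-sided and adjusted by Benjamini-Hochberg over 14327 genes each, and an adjusted p under 0.05 is a call. Fold changes on this scale understate those of low genes.

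The members and lists were chosen with earlier results of these data known. Named were all members, the 5 genes most like Phgdh, Mthfd2 and Asns (Pearson r, levels above the median), up to 4 called genes per list with the smallest adjusted p, and Vhl, Atf4, Myc and Mki67. Positions and exon lengths are from GENCODE M21, promoters from RefSeq, which matched all 9 members. Alternatives were TMM scaling, other filters and pseudocounts (0.5 and 5), a fit of only the groups compared, a replicate block and leaving out each library of a comparison. After the data were seen, 3 more were added: voom on the recovered reads, a length adjustment and a fit without 3 libraries. Count-based alternatives planned at first were not run. Tables and plots used Python 3.11.15, numpy 2.4.6, pandas 2.3.3, scipy 1.17.1 and matplotlib 3.10.9.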

Additional observations from a re-analysis of the deposited data

How the results depend on the processing

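The 9 calls of the mean over 4 tumor settings held in all 28 alternatives. Of the 1379 alternatives of 83 single-gene values, 1269 kept direction and side of the threshold, 69 lost a call, 29 gained one and 12 turned in sign, 0 of them called. In day 11 tumor the count of called members, 4, was 2 with TMM scaling (6.62% of all genes called) and 1 with no filter (1.48%). It was 2 with a pseudocount of 0.5 (6.41%). In a fit of only the groups compared it was 8, where 19.7% of all genes were called. In such a fit the nonTrm count of called members, 3, became 0, where 0 of all genes were called. In Trm against nonTrm of WT cells it was 1 by voom, and the fit without the 3 libraries with steep length slopes left 1 WT Trm library. The log2 fold change of Mthfd1l in spleen turned to 0.0247 by voom. Without the 3 libraries, Mthfd1 in nonTrm cells turned to 0.131 and Psph in Trm against nonTrm of WT cells to -0.0557. Causes were not tested.

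Leaving out each library of a comparison in turn, and VHL-deficient nonTrm replicate 2 in all comparisons, gave 1 to 5 called members in day 11 tumor, 2 to 8 in Trm, 1 to 5 in nonTrm and 0 to 2 in unsplit day 7 tumor. It gave 3 to 6 in VHL-deficient and 5 to 6 in WT tumor against spleen, and 0 to 3 in VHL-deficient and 0 to 1 in WT Trm against nonTrm. The Shmt2 to Shmt1 ratio ranged from 0.51 to 1.04. Uncalled values that turned in sign ranged as follows. In spleen, Psph ran from -0.34 to 0.74, Mthfd1l from -0.41 to 0.37 and Phgdh from -0.34 to 0.21. Mthfd1 in nonTrm cells ran from -1.96 to 0.13 and Psph in WT Trm against nonTrm from -0.06 to 0.55. In tumor against spleen, Psph in VHL-deficient cells ran from -0.79 to 0.29 and Mthfd1l in WT cells from -0.0919 to 1.06.

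Day 11 libraries with the same replicate number deviated together with r of 0.0427, 0.105 and 0.104, so the numbers were not taken to pair samples (other pairs of groups gave -0.181 to 0.271). With a replicate block the counts were 3 in day 11 tumor (5.77% of all genes called) and 1, Phgdh, in unsplit day 7 tumor (1.58%). They were 7 in Trm (8.44%), 3 in nonTrm (1.89%) and 9 in the mean of 4 settings (28.7%). In tumor against spleen they were 6 in VHL-deficient (14%) and 5 in WT cells (19.3%). Scaling by TMM moved the median of all genes by over 0.1 in the interaction of genotype and subset, by 0.115. The planned edgeR and DESeq2 alternatives were not run, because the deposited values are scaled counts plus 1. Voom on the recovered reads was added instead. Shmt1 and Asns, with as few as 5 and 9 reads in a library, have the least depth.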
